A study of Mus musculus with 8 samples.

Results

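Cellular iron handling was described with 10 genes in 4T1 cells sorted by SCA1: Tfrc, Trf, Slc11a2 and Steap3 (iron uptake), Fth1 and Ftl1 (storage), Ncoa4 (release from storage), Slc40a1 (export), and Aco1 and Ireb2 (iron sensing). These 10 genes were chosen by function, with earlier results of these data known, and matched by symbol to Ensembl identifiers. All 10 were among the 16341 genes with a count, and 9 were among the 11717 genes with enough reads to be tested. 4T1 is a mouse mammary carcinoma line, and the surface protein SCA1 is the product of Ly6a. The groups were 4T1-Sca1+ and 4T1-Sca1- cells, with 4 RNA-seq libraries each, and the labels name no treatment. Both fractions were separated on magnetic columns after staining for SCA1, and the labels give both a CD45-negative gate. The source label and the study name the unsorted parental line as the origin of both fractions, but the label's protocol speaks of stained tumor, so culture and tumor origin cannot be told apart from the labels. Nothing in the labels says whether the 4 libraries of a group came from separate sorts, and p-values measure the spread between these libraries, which may be technical.

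Mammalian cells take up iron bound to transferrin through the transferrin receptor, reduce it in endosomes and pass it to the cytosol. Iron that is not used is stored inside ferritin shells built from heavy and light subunits, or leaves the cell through ferroportin. When iron is scarce, the iron regulatory proteins bind short RNA hairpins called iron-responsive elements: in a 5′ UTR this blocks translation, and in a 3′ UTR it protects the messenger RNA from decay. Read counts therefore report transcript levels only, and ferritin and ferroportin protein can differ from them. Rapidly dividing cells, including many carcinoma cells, are known for a high demand for iron.

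Total counts ran from 13561804 to 16968215 per library. Ly6a checked the labels, with 145 to 196 counts in every Sca1+ library and 0 to 4 in every Sca1- library. No libraries were copies of each other. Sca1+ replicate 3 stood apart: the chi-square per degree of freedom between its counts and those of the other Sca1+ libraries was 7.06 to 10.2, against 1.90 to 5.60 between all other pairs within a group, so Tfrc and Ftl1, where it was extreme, are also given without it. By edgeR's quasi-likelihood test with Benjamini-Hochberg adjustment (a call is an adjusted p under 0.05), Sca1+ cells had more transcript for 31.3% of tested genes and less for 30.2%, which is 3668 and 3538 genes. With offsets corrected for transcript GC content the split was 3018 higher and 4791 lower of 11616 genes. Sorted fractions are bulk samples, in which fewer cells of a type and less RNA per cell cannot be told apart.

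The hairpin sequences are shown first because they sit in Slc40a1, Tfrc, Ftl1 and Fth1, the 4 genes with the largest differences among those tested, and in Slc11a2. A script searched the UTRs of GENCODE M21 coding transcripts (GRCm38, sense strand) for a C, any 5 bases, the loop CAGTGN, and 5 bases that pair with the first 5, with G-T pairs allowed. Capitals mark the bulged C and the loop, and 5 flanking bases are printed on each side of the 17-base match (in Slc11a2 the first of those on the 3′ side belongs to the stem), each hairpin 5′ to 3′ on the transcript's strand.
Fth1, 5′ UTR, chr19:9982733-9982759 (+): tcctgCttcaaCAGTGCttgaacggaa
Ftl1, 5′ UTR, chr7:45459780-45459806 (-): tcttgCttcaaCAGTGTttgaacggaa
Slc40a1, 5′ UTR, chr1:45925466-45925492 (-): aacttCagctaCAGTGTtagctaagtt
Tfrc, 3′ UTR, chr16:32631220-32631246 (+): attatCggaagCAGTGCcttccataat
Tfrc, 3′ UTR, chr16:32631599-32631625 (+): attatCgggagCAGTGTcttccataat
Tfrc, 3′ UTR, chr16:32631664-32631690 (+): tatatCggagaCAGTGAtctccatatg
Tfrc, 3′ UTR, chr16:32631711-32631737 (+): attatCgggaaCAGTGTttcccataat
Slc11a2, 3′ UTR, chr15:100395154-100395180 (-): gccatCagagcCAGTGTgtttctatgg
Fth1, Ftl1 and Slc40a1 carried 1 match each, whose last base lay 116, 154 and 208 bases before the first coding base. Tfrc carried 4 matches, which began 889 to 1380 bases after its last coding base. The Slc11a2 hairpin matched only when 1 unpaired base was allowed on its 3′ side. The matches of Ftl1, Tfrc and Slc11a2 each lie in 1 of the gene's 2 basic coding transcripts, and the counts are per gene and do not separate these transcripts. No UTR of Trf, Ncoa4, Ireb2, Aco1 or Steap3 matched, which says only that these letters are not in those windows.

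Without the unpaired base, the motif was present in 28 of 20890 genes with a 5′ UTR (0.134%) and in 127 of 21004 genes with a 3′ UTR (0.605%). With it, the shares were 0.34% and 1.69%. Among all tested genes with the strict motif, calls in both directions occurred for both ends of the transcript, near the shares of 31.3% higher and 30.2% lower among all genes tested. For 5′ UTR matches 6 of 21 tested genes were higher and 6 lower, with a median log2 fold change of -0.03. For 3′ UTR matches 32 of 91 were higher and 25 lower, with a median of 0.08.

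**Figure D1:**
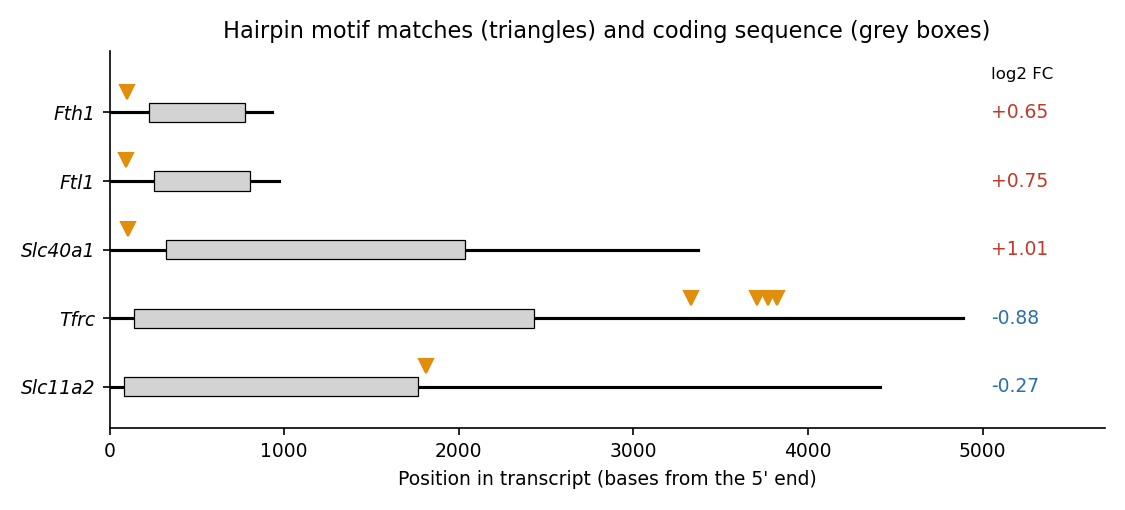
Position of the hairpin matches in 5 iron-handling transcripts, in bases from the 5′ end; grey boxes are coding sequence, triangles are matches, and the log2 fold change (Sca1+ over Sca1-, edgeR) stands at the right. Fth1, Ftl1 and Slc40a1, with a 5′ match, had values of 0.65 to 1.01. Tfrc and Slc11a2, with 3′ matches, had -0.88 and -0.27. Whether the hairpins bear on these differences was not tested.

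Sca1+ cells held more ferritin and ferroportin transcript and less transferrin receptor transcript than Sca1- cells. Of the 9 genes tested, 3 were higher (Fth1, Ftl1, Slc40a1), 4 were lower (Tfrc, Slc11a2, Ncoa4, Aco1) and 2 did not pass the test (Ireb2, Steap3). These 7 calls of 9 compare with 61.5% of all genes tested that were called in either direction, and the 3 higher and 4 lower with 31.3% and 30.2%. Groups did not overlap for the same 7 genes, against 54.7% of all genes tested. Where a call also needed a log2 fold change of 1 or more in either direction, Slc40a1 alone of the 9 passed, against 6.1% of all genes tested. The median log2 fold change was 0.02 over the 9 and 0.01 over all genes tested.

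**Figure D2:**
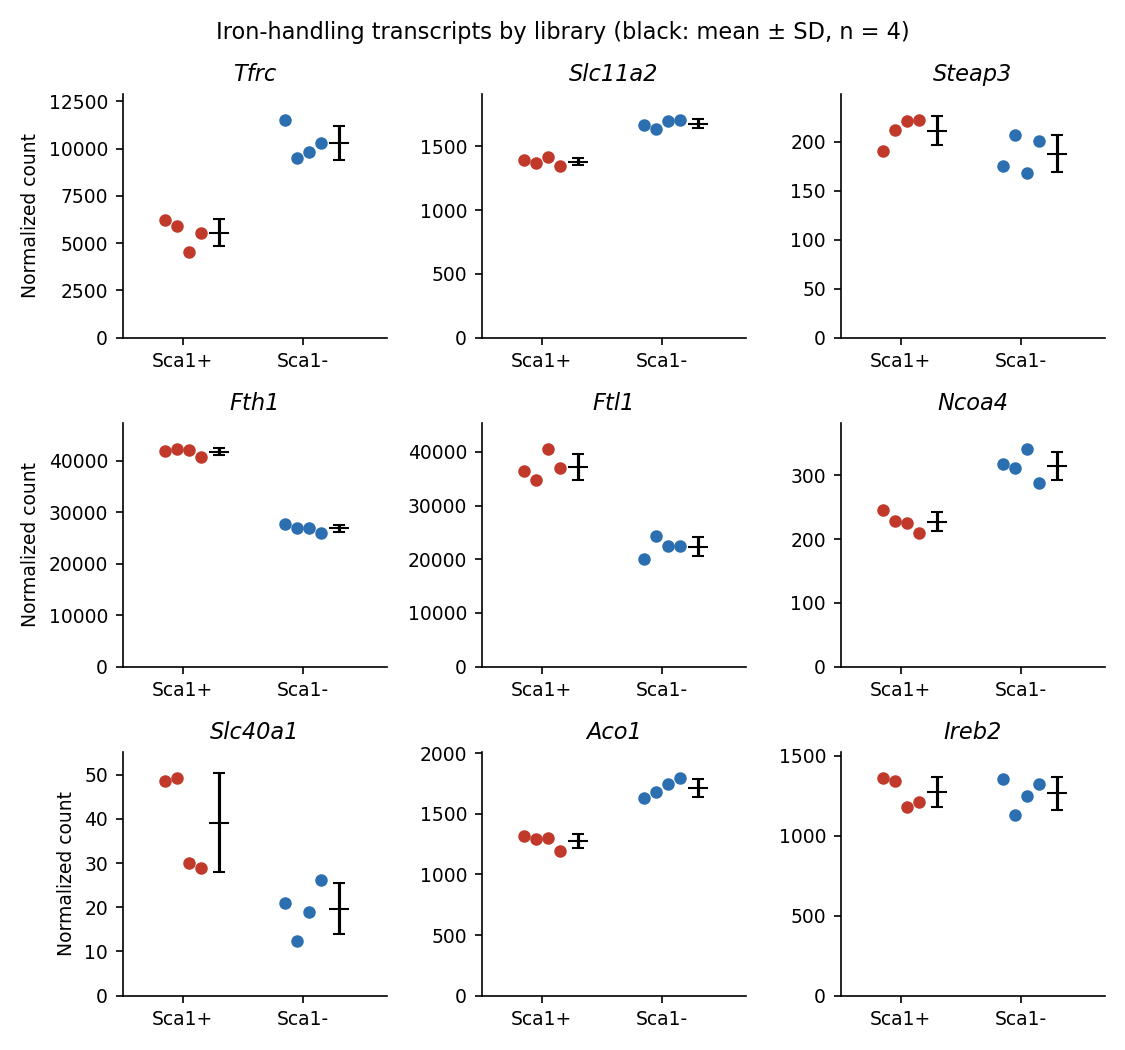
Normalized count (count divided by the library's size factor, linear axes from 0) of the 9 tested genes in each of the 4 Sca1+ (red) and 4 Sca1- (blue) libraries, with mean ± SD in black. Tfrc lies at 4552 to 6200 in Sca1+ and 9517 to 11536 in Sca1- libraries, Fth1 at 40709 to 42348 and 25960 to 27687, while Ireb2 and Steap3 overlap.

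Uptake was led by Tfrc (ENSMUSG00000022797; GRCm38 chromosome 16, 32608920 to 32632794, plus strand), the receptor that carries transferrin-bound iron into the cell. Its normalized counts were 6200, 5934, 4552 and 5535 in Sca1+ replicates 1 to 4, and 11536, 9517, 9830 and 10290 in Sca1- replicates 1 to 4. Every Sca1- library was above every Sca1+ library, and the lowest value was that of Sca1+ replicate 3. The means were 5555 ± 722 and 10293 ± 888 (SD, n = 4), a fall by 0.88 ± 0.08 (SE) on the log2 scale with an adjusted p of 3.73e-08 (edgeR), or 1.84-fold lower. Without Sca1+ replicate 3 the log2 fold change was -0.79.

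Trf encodes transferrin, the plasma carrier that Tfrc binds, and is made mainly by liver. It had 1 count in all over the Sca1+ libraries and 2 over the Sca1- libraries, so both groups were at the floor of 3 counts and Trf was not tested. A difference was not detectable at this depth.

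Slc11a2 (ENSMUSG00000023030; chromosome 15, 100387898 to 100425072, minus strand) encodes DMT1, which moves ferrous iron from endosomes into the cytosol. Its normalized counts were 1391, 1367, 1416 and 1346 in Sca1+ replicates 1 to 4, and 1665, 1632, 1699 and 1709 in Sca1- replicates 1 to 4. All Sca1- libraries were higher, by a small and even margin. The means were 1380 ± 30.4 and 1676 ± 34.7 (SD, n = 4), a log2 fold change of -0.27 ± 0.04 (SE) with an adjusted p of 4.6e-05 (edgeR).

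Steap3, the endosomal ferrireductase that readies iron for DMT1, had 190 to 222 normalized counts in Sca1+ and 168 to 206 in Sca1- libraries. Its groups overlapped, with means of 211 ± 14.8 and 188 ± 18.9 (SD, n = 4). The log2 fold change of 0.18 ± 0.09 (SE) did not pass the test (adjusted p = 0.084, edgeR), and with the GC correction it was -0.01.

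The ferritin transcripts had the highest levels per kilobase of these genes. Fth1 (ENSMUSG00000024661; chromosome 19, 9980598 to 9985098, plus strand) encodes the heavy subunit, which oxidizes iron for storage. Its normalized counts were 41990, 42348, 42008 and 40709 in Sca1+ replicates 1 to 4, and 27687, 26953, 26978 and 25960 in Sca1- replicates 1 to 4. Replicates of each fraction lay close together and the fractions were far apart. The means were 41764 ± 722 and 26895 ± 710 (SD, n = 4), 1.57-fold higher in Sca1+ cells, with a log2 fold change of 0.65 ± 0.04 (SE) and an adjusted p of 1.84e-10 (edgeR). Fth1 took 0.28% of all counts in Sca1+ cells and 0.174% in Sca1- cells, and ranked 9 and 22 among all genes by count.

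Ftl1 (ENSMUSG00000050708; chromosome 7, 45457944 to 45459884, minus strand) encodes the light subunit, which helps the iron core form. Its normalized counts were 36351, 34781, 40604 and 37023 in Sca1+ replicates 1 to 4, and 20081, 24380, 22422 and 22394 in Sca1- replicates 1 to 4. The highest value was that of Sca1+ replicate 3, and no library of one fraction reached the other. The means were 37190 ± 2463 and 22319 ± 1758 (SD, n = 4), a log2 fold change of 0.75 ± 0.06 (SE) with an adjusted p of 3.71e-09 (edgeR). Without Sca1+ replicate 3 it was 0.70, and with the GC correction 0.49, which is over 1.5 times smaller. Ftl1 has 13 annotated near-identical copies (at least 95% identity over 100 bases), none of which was counted, so its level is uncertain to the extent that such reads were dropped or assigned to it.

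Per kilobase of the principal transcript, the mean normalized count of Fth1 was 44956 in Sca1+ and 28950 in Sca1- cells, and that of Ftl1 was 38419 and 23057. On that scale Tfrc followed with 1136 and 2105, Slc11a2 with 456 and 554, Aco1 with 332 and 447, and Ireb2 with 221 and 219. Steap3 had 72.1 and 64.0 per kilobase and Ncoa4 67.9 and 94.0, and these neighbours lay within their spread of each other in Sca1+ cells (SD 5.04 and 4.49) but not in Sca1- cells (SD 6.46 and 6.65). Slc40a1 had 11.6 and 5.82 per kilobase. Dividing by the union of all annotated exons instead put Ftl1 above Fth1, at 27754 against 12039 in Sca1+ cells, so the order of the ferritin subunits depended on the length used.

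Ncoa4 (ENSMUSG00000056234; chromosome 14, 32159865 to 32179855, plus strand) encodes the receptor that brings ferritin to lysosomes, where its iron is released. Its normalized counts were 246, 228, 225 and 209 in Sca1+ replicates 1 to 4, and 317, 311, 342 and 288 in Sca1- replicates 1 to 4. All Sca1+ libraries were below all Sca1- libraries. The means were 227 ± 15.0 and 314 ± 22.2 (SD, n = 4), a log2 fold change of -0.46 ± 0.08 (SE) with an adjusted p of 6.96e-05 (edgeR).

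Slc40a1 (ENSMUSG00000025993; chromosome 1, 45908068 to 45926523, minus strand) encodes ferroportin, the known exporter of iron from mammalian cells. It was scarce, with raw counts of 53, 50, 30 and 33 in Sca1+ replicates 1 to 4, and 22, 12, 17 and 23 in Sca1- replicates 1 to 4. After scaling, the values were 28.9 to 49.3 and 12.3 to 26.3, so the groups were separate but close at their edges. The means were 39.1 ± 11.3 and 19.6 ± 5.76 (SD, n = 4), a log2 fold change of 1.01 ± 0.25 (SE) with an adjusted p of 0.00199 (edgeR). Leaving out single libraries moved it between 0.83 and 1.17, and it stayed called each time.

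Of the sensors, Aco1 was lower and Ireb2 was level. Aco1 (ENSMUSG00000028405; chromosome 4, 40143081 to 40198338, plus strand) encodes iron regulatory protein 1, which is a cytosolic aconitase when it holds an iron-sulfur cluster. Its normalized counts were 1317, 1290, 1299 and 1190 in Sca1+ replicates 1 to 4, and 1630, 1682, 1743 and 1798 in Sca1- replicates 1 to 4. The fractions did not overlap. The means were 1274 ± 56.9 and 1713 ± 72.9 (SD, n = 4), a log2 fold change of -0.41 ± 0.05 (SE) with an adjusted p of 1.40e-06 (edgeR).

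Ireb2 (ENSMUSG00000032293; chromosome 9, 54863789 to 54912530, plus strand) encodes iron regulatory protein 2, which is degraded when iron is plentiful. It had 1363, 1341, 1177 and 1213 normalized counts in Sca1+ replicates 1 to 4, and 1354, 1128, 1250 and 1323 in Sca1- replicates 1 to 4. The fractions overlapped over nearly their whole range. The log2 fold change was 0.02 ± 0.06 (SE), which did not pass the test (adjusted p = 0.765, edgeR). With the GC correction it was 0.14 and passed (adjusted p = 0.00560, edgeR).

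**Figure D3:**
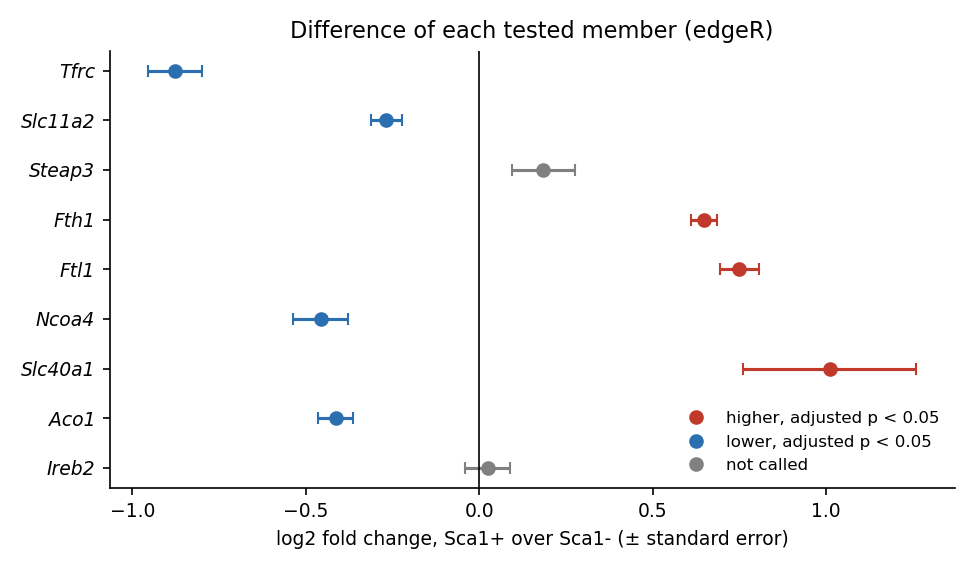
Log2 fold change (Sca1+ over Sca1-, edgeR) with its standard error for the 9 tested genes, red where higher and blue where lower at an adjusted p under 0.05, grey where not called. Slc40a1 has the highest value, 1.01, with the widest error, 0.25, and Tfrc the lowest, -0.88.

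Ratios of 2 transcripts within a library do not depend on how libraries are scaled, and 5 were compared by an exact two-sided permutation test over the 8 libraries, whose smallest possible p is 0.0286. Tfrc to Fth1, receptor over storage, was 0.148, 0.140, 0.108 and 0.136 in Sca1+ replicates 1 to 4, and 0.417, 0.353, 0.364 and 0.396 in Sca1- replicates 1 to 4. Its geometric mean was thus 0.132 against 0.382, 2.89-fold lower in Sca1+ cells, and the groups did not overlap (exact p = 0.0286, adjusted over the 5 ratios 0.0357). Slc40a1 to Tfrc, export over uptake, had geometric means of 0.00687 and 0.00184, 3.72-fold higher in Sca1+ cells (exact permutation p = 0.0286, adjusted 0.0357).

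Ncoa4 to Fth1, ferritin receptor over ferritin, was 0.00514 to 0.00586 in Sca1+ and 0.0111 to 0.0127 in Sca1- libraries, 2.15-fold lower in Sca1+ cells (exact permutation p = 0.0286, adjusted 0.0357). Aco1 to Ireb2 was 0.962 to 1.10 in Sca1+ libraries and 1.20 to 1.49 in Sca1- libraries (exact permutation p = 0.0286, adjusted 0.0357). The heavy to light ferritin ratio, Fth1 to Ftl1, was 1.03 to 1.22 and 1.11 to 1.38, and these overlapped (log2 difference -0.10, exact permutation p = 0.314). The ratios share genes, so they are not independent of each other or of the differences above. In Tfrc to Fth1, Slc40a1 to Tfrc and Ncoa4 to Fth1, both genes were already separated between groups, in opposite directions. Their p of 0.0286 (exact permutation) was thus fixed beforehand and adds no evidence. The adjusted p of Aco1 to Ireb2 was taken over all the ratios, so it leans on these fixed ones and is not read as a pass.

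**Figure D4:**
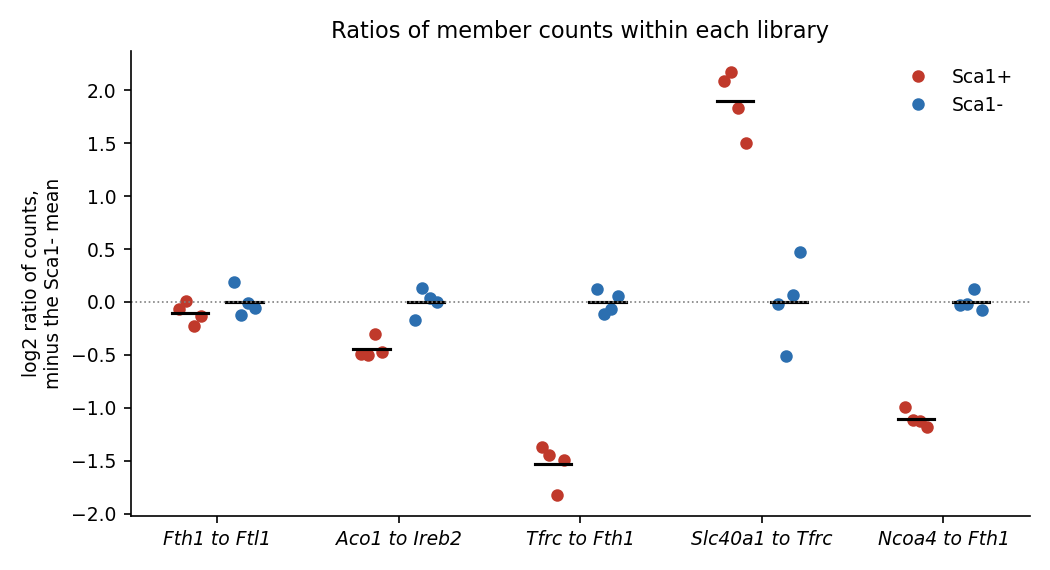
Log2 ratio of the raw counts of 2 genes in each library, minus the mean of the 4 Sca1- libraries; red points are Sca1+, blue points are Sca1-, and bars are group means. Tfrc to Fth1 lies at -1.53 on average and Slc40a1 to Tfrc at 1.90, while Fth1 to Ftl1 overlaps zero at -0.10.

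Other genes of iron and heme metabolism were read from 9 lists with 116 genes in all. Counts of calls in these lists, and in the marker lists below, compare with 31.3% higher and 30.2% lower among all genes tested. Of the other uptake genes, 5 of 10 tested were higher and 1 lower, with a median log2 fold change of 0.29. Those higher by at least 1 on the log2 scale encode secreted or surface proteins that carry iron by routes other than transferrin. Whether these cells take up iron through them was not tested. Lcn2 (lipocalin 2, which binds iron held by siderophores) had 13412 ± 916 normalized counts in Sca1+ and 3162 ± 217 in Sca1- cells (SD, n = 4), a log2 fold change of 2.10. Ltf, which encodes the iron-binding protein lactoferrin, had 206 ± 27.6 and 20.4 ± 4.59, a log2 fold change of 3.33. Scara5, a scavenger receptor known to take up ferritin, had 90.6 ± 6.30 and 19.0 ± 3.37, a log2 fold change of 2.26. The lower gene, Steap1, fell by 0.17 (by 0.11 with the GC correction).

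Of the storage genes and iron chaperones, 3 of 7 tested were higher and 1 lower, with a median of 0.09. Pcbp1, a chaperone that delivers iron to ferritin, rose by 0.37 on the log2 scale (0.10 with the GC correction), and Usp24 fell by 0.53. Export and systemic control held 4 tested genes, 1 higher and 1 lower, with a median of 0.03. Of its counted genes that were not tested, Heph had 34 counts over the Sca1+ and 0 over the Sca1- libraries, and Tmprss6 39 and 1. Hamp had 2 and 0, and Bmp6 4 and 2. Cp encodes ceruloplasmin, the copper oxidase that works beside ferroportin, and had 4194 ± 199 normalized counts in Sca1+ and 1879 ± 116 in Sca1- cells (SD, n = 4), a log2 fold change of 1.17. Neo1 fell by 0.24.

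Heme synthesis had 4 of 11 tested genes higher and 2 lower, with a median of -0.04. Its extremes were Urod at 0.23 and Tmem14c at -0.35, and the 4 higher calls were lost with the GC correction and without Sca1- replicate 1. For heme transport and breakdown, 4 of 10 tested genes were higher and 4 lower, with a median of -0.04. Blvrb, a biliverdin and flavin reductase, had 254 ± 14.6 and 50.7 ± 3.58 normalized counts (SD, n = 4), a log2 fold change of 2.34. Hmox1, the inducible heme oxygenase that frees iron from heme, fell by 0.32.

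The mitochondrial iron and iron-sulfur list had 4 of 21 tested genes higher and 5 lower, with a median of 0.02. Ndufab1 (0.76) and Hspa9 (-0.55) were its extremes. Cytosolic iron-sulfur assembly had 1 of 13 tested genes higher, Ndor1 at 0.36 (0.15 with the GC correction), and 8 lower, led by Nubp2 at -0.50, with a median of -0.25. The list also holds Cisd1, Cisd2 and Cisd3, which encode iron-sulfur proteins rather than assembly factors. Its lower calls include Cisd1 (-0.25) and Cisd3 (-0.32). Cluster supply by the cytosolic assembly machinery turns iron regulatory protein 1 into an aconitase, and a link to these transcripts was not tested.

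Other transcripts with a reported iron-responsive element split as 1 of 7 tested higher and 4 lower, with a median of -0.19. Cdc42bpa fell by 0.46, and Cdc14a was at 0.21, a call lost with DESeq2 and on leaving out any 1 library other than Sca1+ replicate 3 or Sca1- replicate 1. The list of ferroptosis genes, which govern or mark iron-dependent lipid peroxidation, had 4 of 14 tested higher and 7 lower, with a median of -0.12. Slc7a11, the cystine importer that protects against this death, had 1755 ± 111 and 311 ± 3.73 normalized counts (SD, n = 4), a log2 fold change of 2.51. Ptgs2, used as a marker of ferroptosis and of inflammation, fell by 0.67. The other higher genes were Acsl4 (0.71), Aifm2 (0.23) and Chac1 (0.21). The other lower genes were Nox4 (-0.57), Vdac3 (-0.49), Vdac2 (-0.36), Gpx4 (-0.33), Dhodh (-0.24) and Sat1 (-0.22). Slc7a11 and Ptgs2 were named for their size and do not stand for the list.

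**Figure D5:**
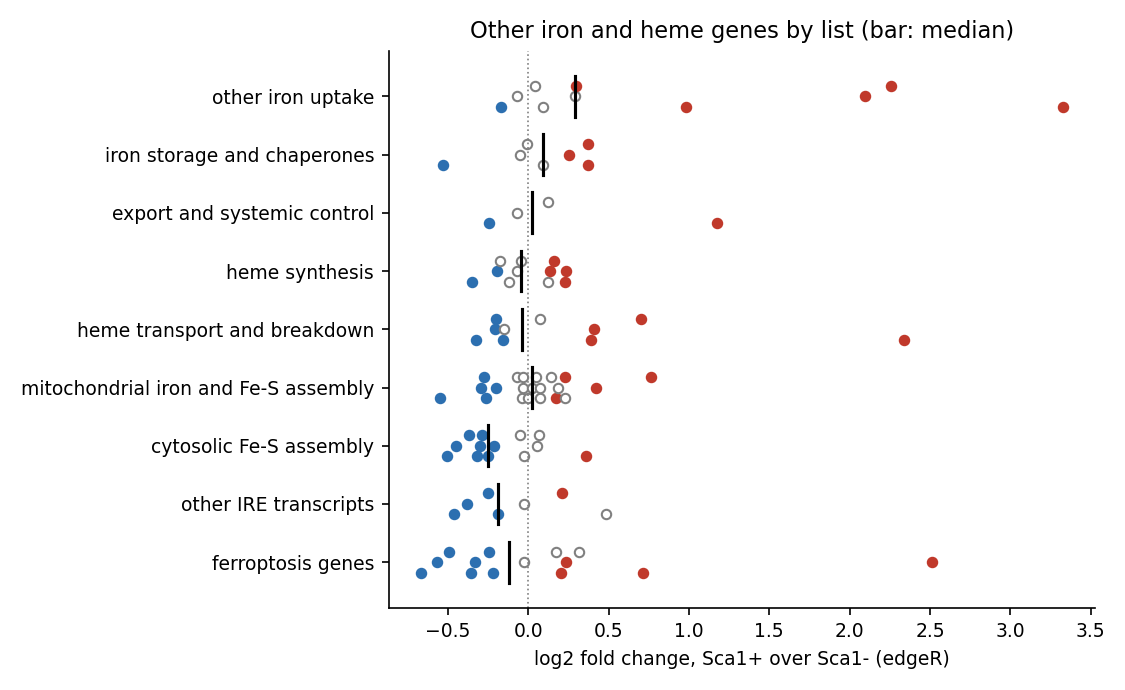
Log2 fold change (Sca1+ over Sca1-, edgeR) of every tested gene in the 9 lists; filled points passed at an adjusted p under 0.05 (red higher, blue lower), open points did not, and bars are list medians. Medians run from -0.25 for cytosolic iron-sulfur assembly to 0.29 for other iron uptake, and the points beyond 2 are Ltf, Slc7a11, Blvrb, Scara5 and Lcn2.

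Marker genes of other cells were read because macrophages and red cell precursors are rich in iron genes. Erythroid markers were near 0: the globins, Epb42 and Ahsp were not among the genes counted, and the 3 counted genes summed to at most 14.4 normalized counts in any library. Of 18 leukocyte markers 5 were tested, with 4 higher and 1 lower. The list summed to 1115 to 1179 normalized counts in Sca1+ and 1059 to 1164 in Sca1- libraries. Most of each sum was Cd14, the lower gene (-0.29), with means of 703 in Sca1+ and 865 in Sca1- cells, so the sums hide the higher genes. Those higher were Cd68 (0.65), Cd74 (0.94), Csf1r (1.18) and S100a8 (2.38). Ptprc, which encodes CD45, Itgam, Lyz2 and Cd3e had at most 10 counts in any library. Fibroblast markers summed to 1055 to 1098 and 496 to 564 normalized counts. Of 4 tested genes 3 were higher, Fbln1 (2.12), Col1a1 (0.75) and Pdgfra (0.63), and Postn (0.05) was not called. Of the genes with too few reads to test, Dcn had 49 counts over the Sca1+ and 4 over the Sca1- libraries, and Pdgfrb 27 and 1. Col1a2 had 19 and 18, and Fap 4 and 11. Col3a1 and Lum were not among the genes counted. Endothelial markers summed to 34.7 to 43.9 and 43.4 to 67.3. Epithelial markers summed to 59166 to 64779 and 60809 to 65654, with 2 of 9 tested genes higher and 4 lower, and ran from Cdh1 (-0.69) to Krt18 (0.38). The part of the leukocyte, fibroblast and epithelial genes in the iron differences was not tested.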

How the data were processed

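RNA of 4 Sca1+ and 4 Sca1- libraries of sorted 4T1 cells was sequenced. The authors deposited raw counts per Ensembl gene, and a table of normalized signal that equalled these counts divided by 1 size factor per library (relative difference at most 5.1e-15). The submitters' processing notes name cutadapt 1.16, STAR 2.5.3a and GRCm38/mm10. The counting tool and its use of strand are not given in the sources used here. Symbols, positions and UTRs came from GENCODE M21 on GRCm38, where 16200 of 16341 genes matched.

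The deposited counts entered edgeR 4.0.16 (R 4.3.3) unchanged (filterByExpr, TMM, quasi-likelihood test, two-sided, no covariate), with Benjamini-Hochberg adjustment over 11717 genes. An adjusted p under 0.05 was called. Normalized counts are counts divided by size factors, and floors cover counting error only, since amplified reads are not counted as single molecules. Common biological variation was 0.0541. The fit was tested on simulated data.

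The genes, lists, ratios and motif were chosen with earlier results of these data known. Of each list, every called gene whose log2 fold change was 1 or more in size was named, and besides these the called genes with the highest and the lowest value. Other genes named were chosen after their values were seen: the markers, the remaining called ferroptosis genes, the Cisd genes and the untested export genes.

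Alternatives were DESeq2 size factors, upper-quartile scaling, library totals, no filter, a minimum of 10 counts per library, the DESeq2 1.42.0 test, limma-voom, limma 3.58.1 on log2(signal + 1), a replicate block, GC-corrected offsets, a 0.01 threshold on the adjusted p, a fold limit (log2 size of 1 or more), and each library left out.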

Additional observations from a re-analysis of the deposited data

Results flagged for a closer look

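Single libraries far from the other 3 of their group were looked for in 72 groups of 4 values with Dixon's gap test, and 4 were found, where chance gives about 3.6 (1 in 20). Of these, 3 were in Sca1+ replicate 3, the library that stood apart overall. It had 10292 normalized counts of Hspa9, a mitochondrial chaperone used in iron-sulfur assembly, against 11627 to 11891 in the other Sca1+ libraries. Its normalized count of Cdc14a was 299, against 340.002 to 344. Its ratio of Aco1 to Ireb2 was 1.10, against 0.962 to 0.981. The remaining value was Trf, with 0.875 normalized counts (1 read) in Sca1+ replicate 4 and 0 in the others.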

How the results depend on the processing

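Under up to 20 alternatives per result, 958 values were classed as unchanged. For a gene this means the same direction and call, for a count a change of at most 1.5 times, and for a ratio a shift below its SD within groups. Of the rest, 46 counts moved by over 1.5 times or to or from 0, 31 values lost a call, 5 gained one and 4 changed sign. The 958 include the 5 ratios under the replicate block, whose values could not change. Fth1, Ftl1, Tfrc, Slc40a1, Slc11a2, Ncoa4 and Aco1 kept direction and call under every alternative but the fold limit: with a log2 fold change of 1 or more in size required, the calls of Fth1 (0.65), Ftl1 (0.75), Tfrc (-0.88), Slc11a2 (-0.27), Ncoa4 (-0.46) and Aco1 (-0.41) ended by construction, leaving 1 gene higher and 0 lower. Steap3 turned to -0.013 with the GC correction and was called with upper-quartile scaling (0.21) and library totals (0.23); without single libraries it ran from 0.14 to 0.23, called without Sca1+ replicate 1 or Sca1- replicate 2. Ireb2 was called with the GC correction (0.14); without single libraries it ran from -0.033 to 0.057, below 0 without Sca1+ replicate 1 (-0.014), Sca1+ replicate 2 (-0.00253) or Sca1- replicate 2 (-0.033). The cause was not tested.

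Counts in lists moved as follows. With that fold limit, 3 higher and 0 lower remained for other uptake, 1 higher and 0 lower for heme transport and breakdown and for ferroptosis genes, 0 lower for export, and 0 in both directions for storage, heme synthesis, mitochondrial, cytosolic and other iron-responsive lists. Of all genes tested, 6.1% passed that limit in either direction. With the GC correction, other uptake had 2 lower, heme synthesis 0 higher and 5 lower, other iron-responsive transcripts 2 higher and ferroptosis genes 2 higher. These compare with 3018 higher and 4791 lower of all 11616 genes tested with that correction. At an adjusted p under 0.01, other uptake had 0 lower, heme synthesis 1 higher and other iron-responsive transcripts 0 higher. Export had 2 higher with upper-quartile scaling, library totals or at least 10 counts in every library, and 3 with no filter, DESeq2 or limma on the signal table. Other iron-responsive transcripts had 2 higher with no filter or the replicate block and 0 with DESeq2. Without single libraries, the higher counts ran from 1 to 2 for export, 0 to 4 for heme synthesis (0 without Sca1- replicate 1) and 0 to 2 for other iron-responsive transcripts.

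The replicate numbers did not pair the libraries: correlations of same-numbered deviations were 0.0957, -0.150, -0.0339 and -0.0011. With the replicate block 3605 genes were higher and 3452 lower. For the ratios the block leaves the mean log2 difference unchanged by arithmetic, so it tests nothing about their size. Its smallest possible sign-flip p is 0.125. Depth limits Trf, at the floor, and Slc40a1, with at most 53 counts in a library.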
